A study of Mus musculus with 24 samples.

Results

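The 41 genes described here drive cells through the division cycle, and they were chosen by symbol as 4 lists kept apart throughout: 13 genes of S phase, 12 genes of mitosis, 12 cyclins and cyclin-dependent kinases (CDKs), and 4 CDK inhibitors. All 41 were found among the 54752 gene identifiers of the count table, each with a single identifier, and all 41 passed the filter on low counts, as did 16463 genes in total. Bulk RNA-Seq had been run on the ductus arteriosus (DA), the fetal vessel that joins the pulmonary artery to the aorta and closes after birth, and on the ascending aorta, both dissected from E18.5 mouse embryos on a C57/Black6 background. The question set by the design was what loss of Prdm6, a PR-domain protein expressed in vascular smooth muscle cells, does to the RNA of each vessel.

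Of 24 libraries in the labels 23 were analysed: 7 of control DA, 5 of Prdm6-deficient DA, 6 of control aorta and 5 of Prdm6-deficient aorta. Prdm6-deficient embryos were Wnt1Cre;PRDM6f/f, that is homozygous for a floxed Prdm6 allele with Cre under the Wnt1 promoter. That promoter is active in neural crest, so deletion was directed to cells of that origin. Prdm6 in cells of other origin in these vessels was not measured apart. Controls were PRDM6wt/f without Cre, except that 1 DA library was PRDM6wt/wt and 1 animal, which gave a DA and an aorta library, was Wnt1Cre;PRDM6wt/wt. All Prdm6-deficient libraries carried Cre, and of the controls only those of this animal did. Effects of Cre and of Prdm6 loss therefore cannot be told apart here. Each of the 6 control aorta libraries came from an animal that also gave a control DA library, and some Prdm6-deficient embryos gave both vessels. The main test treated all libraries as independent. Replicates 1 and 2 of Prdm6-deficient DA were each a pool of 2 embryos, and replicate 4 of that group was not analysed here. Animal numbers in the labels fall into a lower and a higher run whose meaning is not stated; the lower run holds 3 Prdm6-deficient and 2 control DA libraries, and 2 Prdm6-deficient and 1 control aorta libraries.

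Total counts ran from 15163974 to 22610547 per library, so 3 counts corresponded to between 0.133 and 0.198 CPM, the count scaled to a common library size; every CPM value below was scaled by TMM factors, which correct for the RNA composition of a library. Prdm6 itself ran from 85.0 to 127.5 CPM in control DA and from 58.7 to 78.5 CPM in Prdm6-deficient DA, and from 95.6 to 135.5 CPM in control aorta against 61.9 to 81.2 CPM in Prdm6-deficient aorta, so neither vessel's groups overlapped (log2 fold changes of -0.57 and -0.69, edgeR adjusted p = 0.000553 and 0.00017). The 7 smooth muscle markers summed to between 8632 and 24000 CPM in every library. Red blood cell RNA was far above the rest in replicate 1 of Prdm6-deficient DA (137800 CPM over 8 erythroid genes) and replicate 4 of control aorta (136600 CPM), the other 21 libraries lying between 13170 and 66610 CPM.

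A cell enters the division cycle when D-type cyclins with CDK4 or CDK6, and then cyclin E with CDK2, phosphorylate the retinoblastoma protein and release E2F transcription factors, which switch on the genes that copy DNA. Genes of mitosis follow later under the MuvB complex with B-Myb and FoxM1, which acts at a promoter element named CHR, often next to CCAAT boxes bound by NF-Y. Inhibitors such as p21 (Cdkn1a), p27 (Cdkn1b), p57 (Cdkn1c) and p18 (Cdkn2c) hold the kinases in check. Vascular smooth muscle of the fetus still divides while it acquires its contractile proteins.

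The promoters of the lists differed in the letters they hold, and the short windows below are shown because they carry the element that separates the mitosis genes from the S phase genes. Of the 41 members, 34 had a RefSeq promoter in GRCm38.p6, a window of 250 bases before and 50 bases after a transcription start, and 3 elements were searched on both strands: CHR (TTTGAA), the CCAAT box (CCAAT) and an E2F core in 4 spellings (TTCCCGC as the first, TTCGCGC as another, TTGCCGC as the third and TTGGCGC as the last). CHR lay in 8 of 11 mitosis promoters (72.7%), in 1 of 13 S phase promoters (7.7%) and in 17.9% of all 32851 promoters. The E2F core lay in 9 of 13 S phase promoters (69.2%), in 1 of 11 mitosis promoters (9.1%) and in 9.6% of all promoters. CCAAT boxes lay in 10 of 11 mitosis promoters and 9 of 13 S phase promoters (90.9% and 69.2%) against 37.4% of all. The windows below, from 10 members, are on the strand of the gene with the CHR match in capitals; it starts between 98 bases before and 40 bases after the transcription start, and Top2a and Kif11 hold it as TTCAAA, its opposite strand.
Mki67, chr7:135716460-135716489, minus strand: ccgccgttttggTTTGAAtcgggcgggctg
Top2a, chr11:99024195-99024224, minus strand: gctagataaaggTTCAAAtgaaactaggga
Cdc20, chr4:118437344-118437373, minus strand: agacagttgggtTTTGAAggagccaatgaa
Aurka, chr2:172370521-172370550, minus strand: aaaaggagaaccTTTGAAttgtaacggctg
Plk1, chr7:122159453-122159482, plus strand: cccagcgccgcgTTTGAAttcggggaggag
Bub1b, chr2:118598239-118598260, plus strand: agagacgttaaaTTTGAAactt
Cenpf, chr1:189688067-189688096, minus strand: ggcggcgggcagTTTGAAtcgctcgtgctg
Kif11, chr19:37376351-37376380, plus strand: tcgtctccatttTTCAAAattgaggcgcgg
Cdk1, chr10:69352910-69352939, minus strand: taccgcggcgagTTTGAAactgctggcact
Ccnb2, chr9:70421533-70421562, minus strand: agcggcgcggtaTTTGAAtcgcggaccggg

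The members that passed the test in at least 1 comparison were Cdk6, Ccne1, E2f1 and Mcm3. The whole promoter windows of 3 of them are shown, and that of E2f1 is not. That of Mcm3 holds 3 matches to the E2F core near the end of the window, in capitals, of which the last pair overlap on opposite strands. Those of Cdk6, Ccne1 and E2f1 hold no match to the E2F core, CHR or CCAAT box.
Mcm3, chr1:20820263-20820562, minus strand: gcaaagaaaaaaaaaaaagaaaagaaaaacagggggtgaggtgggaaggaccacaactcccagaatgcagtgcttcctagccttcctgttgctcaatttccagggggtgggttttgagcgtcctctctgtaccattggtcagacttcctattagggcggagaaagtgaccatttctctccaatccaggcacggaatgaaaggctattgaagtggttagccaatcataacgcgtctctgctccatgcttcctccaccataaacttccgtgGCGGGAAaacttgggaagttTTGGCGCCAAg
Cdk6, chr5:3343643-3343942, plus strand: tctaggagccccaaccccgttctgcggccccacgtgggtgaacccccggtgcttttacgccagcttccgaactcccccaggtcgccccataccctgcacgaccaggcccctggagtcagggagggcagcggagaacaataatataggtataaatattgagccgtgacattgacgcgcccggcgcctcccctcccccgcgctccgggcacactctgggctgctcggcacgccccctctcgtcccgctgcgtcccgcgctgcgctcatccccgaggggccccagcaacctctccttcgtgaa
Ccne1, chr7:38107441-38107740, minus strand: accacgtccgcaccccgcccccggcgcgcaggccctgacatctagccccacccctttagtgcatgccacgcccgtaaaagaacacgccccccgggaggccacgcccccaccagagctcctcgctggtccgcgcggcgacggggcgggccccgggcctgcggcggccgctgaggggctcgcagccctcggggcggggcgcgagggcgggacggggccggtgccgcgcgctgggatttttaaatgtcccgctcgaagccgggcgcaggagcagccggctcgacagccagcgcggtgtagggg

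Division genes were well measured in all 23 libraries, and the same genes stood highest per kilobase of their longest transcript in both control vessels. In control DA Cdkn1c stood first at 220.3 CPM per kilobase, followed by Pcna (117), Cdk4 (106) and Ccnd3 (76.9). The same 4 genes led in control aorta, with Cdkn1c at 304.5 and Pcna at 138 CPM per kilobase. Lowest in control DA were Cdk6 (2.71) and Cdc6 (2.91 CPM per kilobase). In control aorta Cdk6 stood above Cenpf, Cenpe and Cdc6 at 5.20 CPM per kilobase.

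In Prdm6-deficient DA against control DA, Cdk6, a kinase that works with D-type cyclins at entry into the cycle, rose, and Ccne1, the cyclin E that follows it with CDK2, fell; the other 39 members did not pass the test. A gene passed at an adjusted p below 0.01, Benjamini-Hochberg over all 16463 genes in edgeR's quasi-likelihood test, with a log2 fold change beyond 0.5. Against these 2 of 41 members, 5.43% of all genes tested were called in this comparison, 2.61% higher and 2.82% lower, so the share of members called was near that of all genes. RNA of a whole vessel was measured, so fewer cells of a type and less RNA per cell cannot be told apart here or in any comparison below.

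Cdk6 (chromosome 5, 3341485 to 3531008, plus strand, mm10) ran from 22.7 to 45.2 CPM in the 7 control DA libraries, with a median of 31.1. The 5 Prdm6-deficient DA libraries were at 65.6, 54.8, 75.4, 76.9 and 58.9 CPM. Every Prdm6-deficient library was above every control library, and Cdk6 was the only member whose groups did not overlap in this comparison, where 5.66% of all genes did not. The means were 66.3 ± 9.80 CPM (SD, n = 5) and 31.2 ± 7.49 CPM (SD, n = 7), a 2.13-fold difference (log2 fold change 1.09, SE 0.14, adjusted p = 2.18e-06). Within the lower run of animal numbers the log2 fold change was 1.32 (adjusted p = 0.00203), and within the higher run it was 0.82 (adjusted p = 0.0204), which did not pass.

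Ccne1 (chromosome 7, 38097984 to 38107534, minus strand) ran from 9.90 to 21.8 CPM in control DA, with a median of 17.0. In Prdm6-deficient DA it was at 10.7, 7.55, 8.57, 5.002 and 6.58 CPM. Replicate 1 of the Prdm6-deficient group, the library rich in red blood cell RNA, overlapped the lowest control library, and the other 4 lay below all controls. The means were 7.67 ± 2.13 CPM (SD, n = 5) and 16.7 ± 4.03 CPM (SD, n = 7), a log2 fold change of -1.13 (SE 0.21, adjusted p = 0.000428), or 2.18-fold lower. Within each run of animal numbers the direction was the same but the test was not passed (-1.14, adjusted p = 0.156, and -1.21, adjusted p = 0.0125). Ccne2, which encodes the other cyclin E, had a log2 fold change of -0.15.

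Other marker genes moved between these groups. The 7 smooth muscle markers summed to between 13700 and 24000 CPM in control DA and to between 9943 and 12130 CPM in Prdm6-deficient DA, with 6 of 7 called lower, and the 5 melanocyte markers summed to between 27.8 and 217.9 CPM in control DA and to at most 1.56 CPM in Prdm6-deficient DA, with 4 of 5 called lower and Tyr at 0 in every Prdm6-deficient library. The 6 fibroblast markers overlapped, at 2475 to 4750 CPM in control DA and 4009 to 4828 CPM in Prdm6-deficient DA. Of these 5 were higher by sign, 1 of them called, and 1 was lower. Most of the sum was Col1a1 (mean 2587 against 2823 CPM), while Lum had a mean of 178 against 483 CPM. Other sums had higher medians in Prdm6-deficient DA with overlapping ranges, at 73.6 against 19.0 CPM for Schwann cell, 39.4 against 17.9 CPM for neuron and 6.23 against 2.34 CPM for thymocyte markers. The Schwann cell overlap came from control DA replicate 7, at 169.6 CPM. Medians were also higher for endothelial (871 against 718 CPM), leukocyte and macrophage (160 against 116 CPM), erythroid (35820 against 26580 CPM) and cardiomyocyte markers (169 against 94.4 CPM), again with overlap. The epithelial median was lower, at 29.4 against 38.9 CPM. The part of these cell types in the levels of Cdk6 and Ccne1 was not tested.

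**Figure D1:**
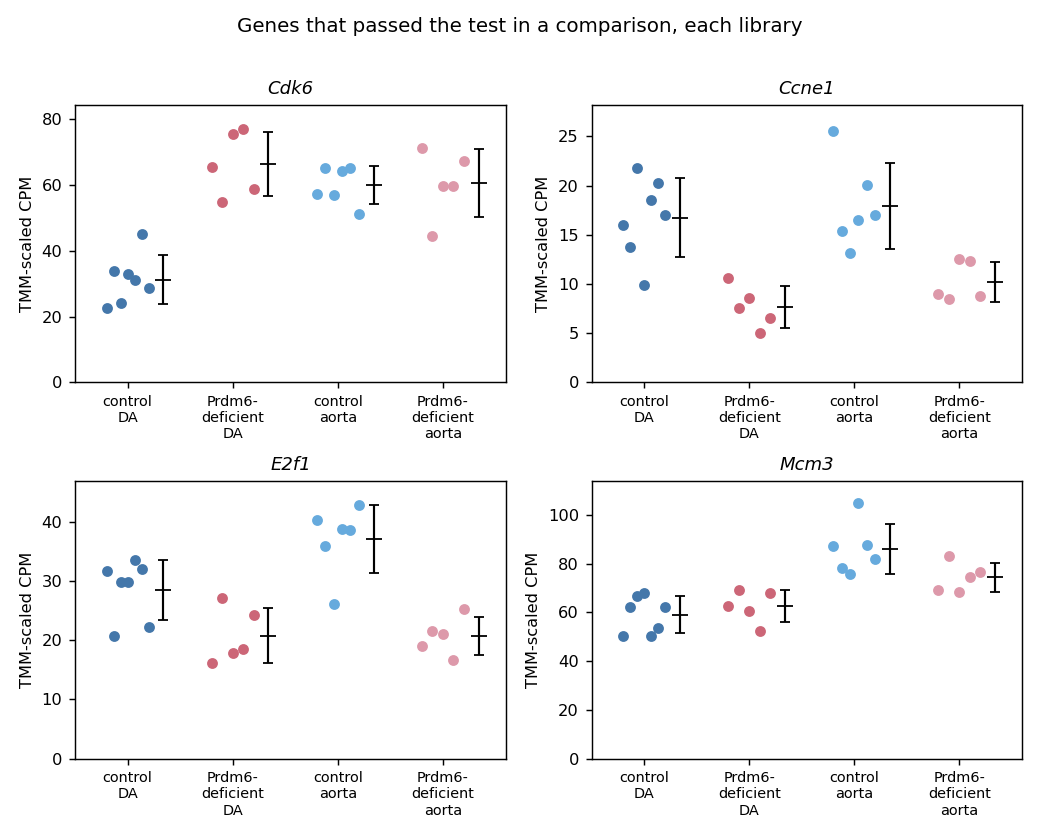
TMM-scaled CPM (y axis, from 0) of Cdk6, Ccne1, E2f1 and Mcm3 in each of the 23 libraries, by group on the x axis; points are libraries and bars are the mean ± SD of 7, 5, 6 and 5 libraries. Cdk6 was between 22.7 and 45.2 CPM in control DA and at 44.5 CPM or more in the other 3 groups, while E2f1 was at 25.2 CPM or less in Prdm6-deficient aorta and at 26.1 CPM or more in control aorta.

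The genes of mitosis lay lower in Prdm6-deficient DA without passing the test. By sign 11 of 12 were lower, with a median log2 fold change of -0.28, where 48.5% of all genes were lower and their median was 0.01. Bub1b, a kinase of the spindle checkpoint, came nearest to the limits. It ran from 52.2 to 79.7 CPM in control DA and was at 44.3, 40.3, 55.4, 44.7 and 51.1 CPM in Prdm6-deficient DA, giving a log2 fold change of -0.47 (SE 0.12, adjusted p = 0.0075) that stayed just short of the fold required. Among 23 refits, in turn dropping a different library, Bub1b passed in only 4, with log2 fold changes from -0.54 to -0.51. Only replicate 5 of the Prdm6-deficient group lay within the control range.

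Top2a, the topoisomerase that untangles chromosomes, ran from 169.3 to 280.1 CPM in control DA, with a median of 212. It was at 172, 139.5, 189, 158 and 171.5 CPM in Prdm6-deficient DA (log2 fold change -0.36, SE 0.10, adjusted p = 0.0163), so the groups overlapped. Mki67, which coats mitotic chromosomes and is the usual mark of dividing cells, ran from 149.5 to 197 CPM in control DA, with a median of 169. It was at 153, 113, 156, 118 and 149.9 CPM in Prdm6-deficient DA, giving a log2 fold change of -0.29 (95% interval -0.49 to -0.10, adjusted p = 0.0573). Of these 5 libraries 3 lay within the control range. Birc5, which encodes survivin of the chromosomal passenger complex, was the member of the list with a positive value, at 0.24.

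Of the partners of CDK1, Ccnb1 and Ccna2 showed a like pattern. Ccnb2, another B-type cyclin, was less changed (log2 fold change -0.18, edgeR adjusted p = 0.369). Ccnb1, a B-type cyclin of mitosis, ran from 66.5 to 93.1 CPM in control DA. In Prdm6-deficient DA it was at 77.2, 55.2, 67.9, 63.2 and 58.6 CPM (log2 fold change -0.35, SE 0.10, adjusted p = 0.0241). Ccna2, the A-type cyclin of S phase and mitosis, had a log2 fold change of -0.30 (adjusted p = 0.0353). Cdk1 itself ran from 86.5 to 123 CPM in control DA and was at 89.7, 90.6, 87.1, 86.0 and 90.7 CPM in Prdm6-deficient DA, overlapping, with a log2 fold change of -0.16. Counted at an adjusted p below 0.05 with no limit on the fold, 6 members were lower (Bub1b, Top2a, Ccna2, Ccnb1, E2f1 and Ccne1) and 1 was higher (Cdk6), beside 6.24% and 6.12% of all genes. The difference between the members' share and that of all genes was not tested.

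S phase genes lay nearer to 0 in the DA. By sign 8 of 13 were lower and the median log2 fold change was -0.05. Pcna, the sliding clamp of DNA polymerases, ran from 155.6 to 203.2 CPM in control DA and was at 178, 180.5, 196, 178 and 178 CPM in Prdm6-deficient DA, all within the control range (log2 fold change 0.04, 95% interval -0.09 to 0.16). Mcm2, a subunit of the replicative helicase, ran from 61.6 to 78.5 CPM in control DA and was at 58.0, 72.5, 74.7, 68.3 and 63.6 CPM in Prdm6-deficient DA (log2 fold change 0.00, 95% interval -0.17 to 0.18). E2f1, a transcription factor that switches on S phase genes, ran from 20.6 to 33.5 CPM in control DA and was at 16.1, 27.1, 17.9, 18.5 and 24.3 CPM in Prdm6-deficient DA (log2 fold change -0.45, SE 0.15, adjusted p = 0.0498). The lowest control library for E2f1 was replicate 2, from the animal that carries Wnt1Cre.

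**Figure D2:**
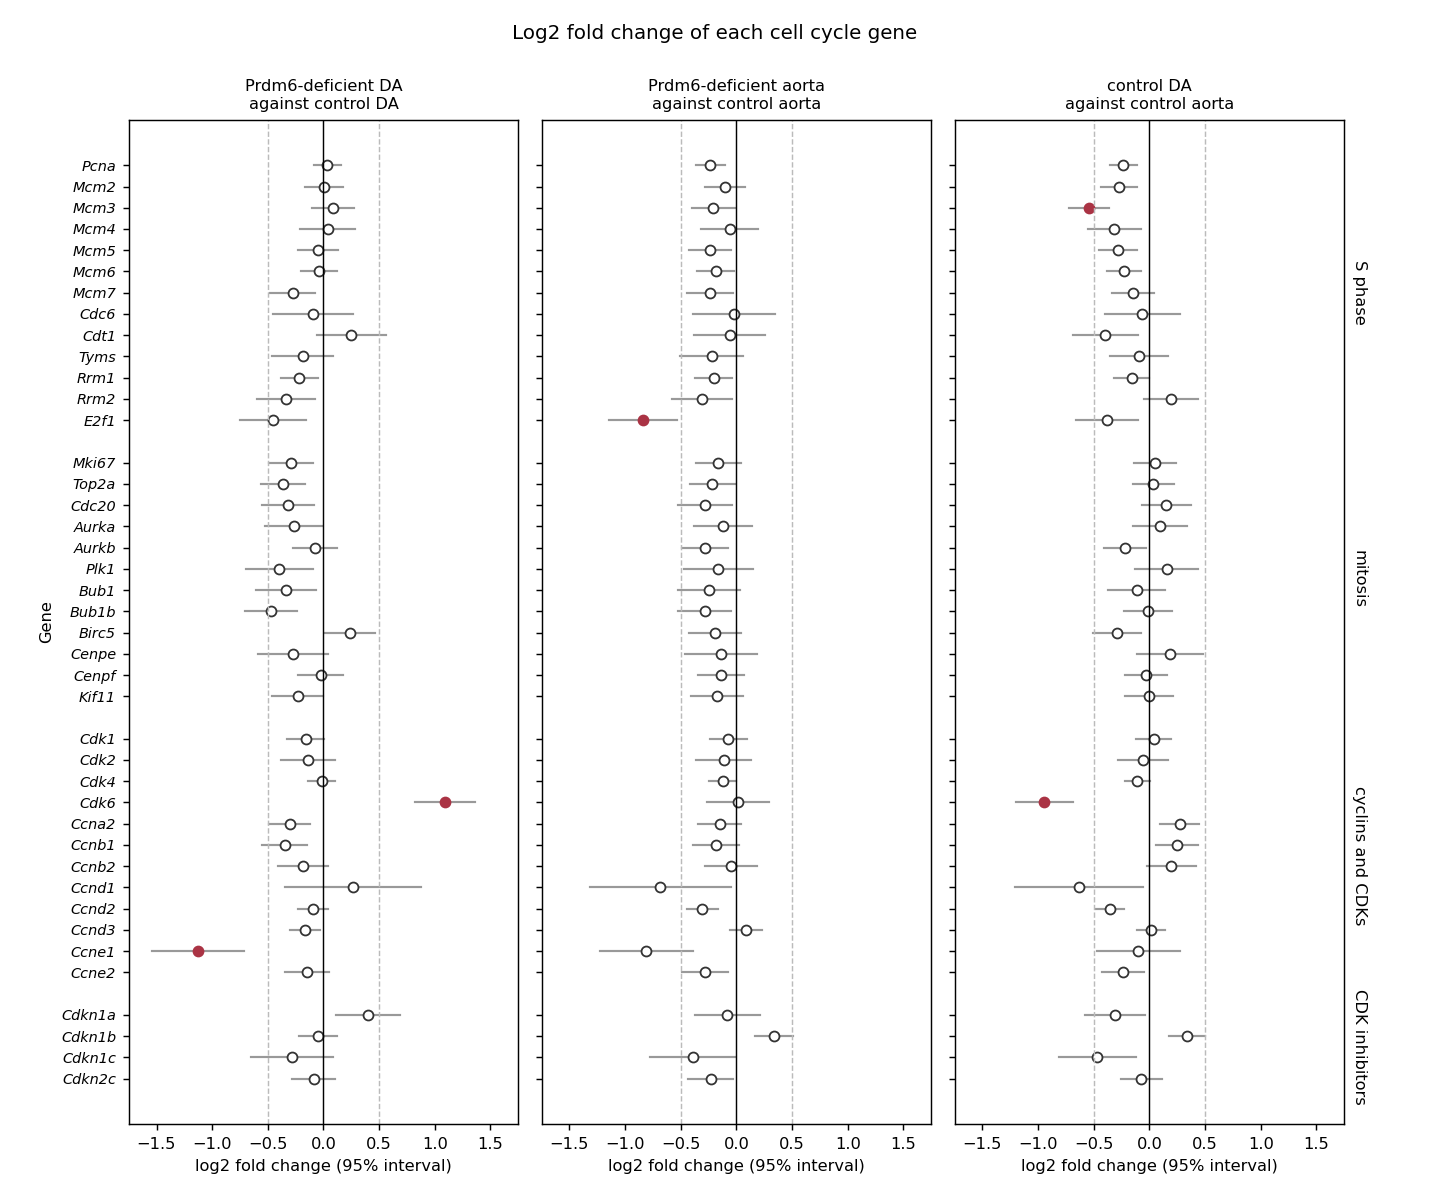
Log2 fold change (x axis) of the 41 members (y axis, by list) in 3 comparisons; points are estimates, lines 95% intervals, filled points the members called, and dashed lines the fold limit of 0.5. The 12 mitosis genes lie below 0 in Prdm6-deficient DA except Birc5, and all 13 S phase and all 12 mitosis genes lie below 0 in Prdm6-deficient aorta.

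In Prdm6-deficient aorta against control aorta, E2f1 fell and no other member passed the test, beside 2.45% of all genes called and 0.826% called lower. E2f1 lies on chromosome 2 from 154559407 to 154569892 on the minus strand. It was at 40.3, 36.0, 26.1, 38.8, 38.5 and 42.8 CPM in control aorta and at 19.0, 21.6, 21.1, 16.7 and 25.2 CPM in Prdm6-deficient aorta. Every Prdm6-deficient library lay below every control library, the nearest control being replicate 3, from the Wnt1Cre;PRDM6wt/wt animal. In a refit without that animal E2f1 still passed. The means were 20.7 ± 3.15 CPM (SD, n = 5) and 37.1 ± 5.81 CPM (SD, n = 6), a log2 fold change of -0.84 (SE 0.16, adjusted p = 0.00096). Within the higher run of animal numbers it was -0.84 (adjusted p = 0.00204), and within the lower run, which has 1 control library, it was -0.46 and did not pass (adjusted p = 1).

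By sign all 13 S phase genes and all 12 mitosis genes were lower in Prdm6-deficient aorta, with medians of -0.21 and -0.18, where 50.1% of all genes were lower and the median of all genes was 0.00. The differences of single genes were small. Pcna was at 216, 201.2, 209, 214, 210.5 and 201.4 CPM in control aorta and at 173.5, 185, 166, 178 and 185 CPM in Prdm6-deficient aorta, without overlap, a log2 fold change of -0.23 (SE 0.07, adjusted p = 0.0345). Mcm2 ran from 69.4 to 98.2 CPM in control aorta and from 69.4 to 83.8 CPM in Prdm6-deficient aorta (log2 fold change -0.11, 95% interval -0.28 to 0.07). Mki67 ran from 128 to 181 and from 131.5 to 165 CPM (log2 fold change -0.16, 95% interval -0.37 to 0.04), and Top2a from 180.1 to 234 and from 164 to 201.2 CPM (log2 fold change -0.22).

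Among the cyclins, Ccnd2, a D-type cyclin, was at 210.4, 187, 199.6, 184, 181.5 and 202 CPM in control aorta. It was at 149, 153, 157, 170.2 and 153.5 CPM in Prdm6-deficient aorta, without overlap, a log2 fold change of -0.31 (SE 0.07, adjusted p = 0.00724) that is within the fold limit. Ccne1 was at 25.6, 15.4, 13.1, 16.5, 20.1 and 17.0 CPM in control aorta and at 9.01, 8.43, 12.5, 12.4 and 8.83 CPM in Prdm6-deficient aorta, again without overlap (log2 fold change -0.81, SE 0.21, adjusted p = 0.0208). With DESeq2 in place of edgeR Ccne1 passed (adjusted p = 0.00469). Cdk6 ran from 51.1 to 65.3 CPM in control aorta and from 44.5 to 71.4 CPM in Prdm6-deficient aorta, with a log2 fold change of 0.01. In all 5 of the 41 members did not overlap between the aorta groups (E2f1, Pcna, Ccnd2, Ccne1 and Ccne2), all lower, where 6.95% of all genes did not overlap. At an adjusted p below 0.05 with no limit on the fold, 4 members were lower (E2f1, Ccnd2, Ccne1 and Pcna) and 1 higher (Cdkn1b), beside 2.09% and 2.95% of all genes.

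The mean log2 CPM over a list gives the level of the list in each library. For S phase it ran from 5.93 to 6.22 in control aorta and from 5.77 to 5.86 in Prdm6-deficient aorta, and for cyclins and CDKs from 6.18 to 6.39 and from 6.003 to 6.16, so neither overlapped. The mitosis level overlapped in both vessels, at 5.75 to 6.11 and 5.62 to 5.85 in the aorta and at 5.65 to 6.14 and 5.45 to 5.86 in the DA. The 7 leukocyte and macrophage markers also separated the aorta groups, at 122.7 to 242.7 CPM in control and 71.5 to 111.6 CPM in Prdm6-deficient aorta, none called, and the 6 endothelial markers were at 510.2 to 847 CPM and 803 to 1077 CPM, with 3 of 6 called higher. The 6 neuron markers separated them as well, at 18.7 to 32.0 CPM in control and 40.6 to 82.1 CPM in Prdm6-deficient aorta. All 4 neuron markers tested were higher by sign and 1 was called. Most of the difference lay in Elavl4 (mean 4.66 against 37.6 CPM), with Stmn2 at 15.3 against 16.4 CPM. The 6 fibroblast markers overlapped, at 3923 to 4969 CPM and 3196 to 4104 CPM. Of these 3 were higher by sign, 1 of them called, and 3 lower, with Lum at a mean of 166 against 506 CPM and Dpt at 630 against 314 CPM. The 8 erythroid markers overlapped too, at 26780 to 136600 CPM and 16170 to 57630 CPM, with 7 lower by sign, 1 higher and none called. The part of these cells in the lower levels was not tested.

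**Figure D3:**
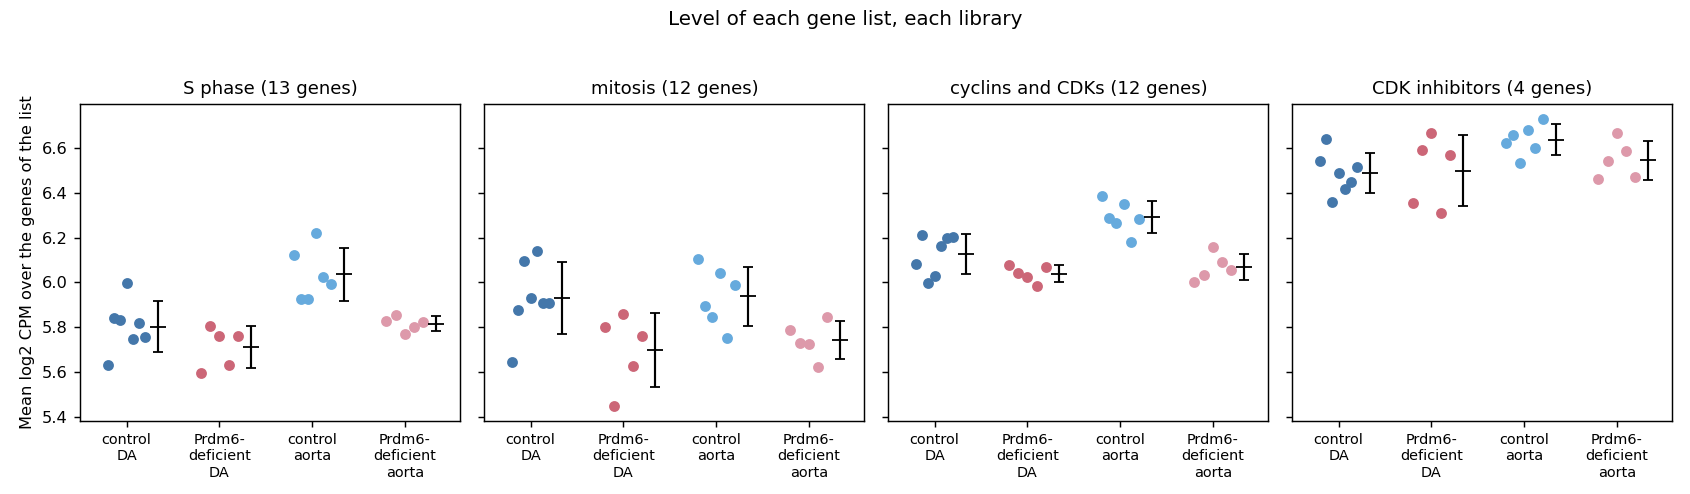
Mean log2 CPM over the genes of each list (y axis, which does not start at 0) in each library, by group on the x axis; points are libraries and bars are the mean ± SD of 7, 5, 6 and 5 libraries. S phase ran from 5.93 to 6.22 in control aorta and from 5.77 to 5.86 in Prdm6-deficient aorta.

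In control DA against control aorta, Cdk6 and Mcm3 were lower in the DA and passed the test, beside 5.36% of all genes called and 2.19% called lower. This comparison shares the control DA and control aorta libraries with those above, so the members' values are not independent of them. Cdk6 was at 57.2, 65.2, 56.9, 64.2, 65.3 and 51.1 CPM in control aorta, all above the 45.2 CPM of the highest control DA library (log2 fold change -0.94, SE 0.13, edgeR adjusted p = 9.28e-06). Within the lower and higher run of animal numbers the values were -0.97 (adjusted p = 0.0891) and -0.92 (adjusted p = 0.000819).

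Mcm3 (chromosome 1, 20802968 to 20820312, minus strand), a subunit of the replicative helicase, ran from 50.2 to 67.9 CPM in control DA, with a median of 62.0. It was at 87.2, 78.0, 75.9, 104.7, 87.5 and 82.0 CPM in control aorta, all above the DA. The log2 fold change was -0.54 (SE 0.09, adjusted p = 9.28e-05), just past the fold limit. The highest value was that of replicate 4, the control aorta library rich in red blood cell RNA, and without that library the log2 fold change was -0.48 (adjusted p = 0.000416), inside the limit. Within the lower run of animal numbers it was -0.23 (adjusted p = 0.859) and within the higher run -0.63 (adjusted p = 0.00042).

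By sign, the lists were counted between the control vessels, with no test of a difference between lists. Of the S phase genes 12 of 13 were lower in the DA (median log2 fold change -0.23), and of the mitosis genes 6 of 12 (median 0.01), where 50.7% of all genes were lower and the median of all genes was 0.00. All 6 subunits of the Mcm2 to Mcm7 helicase were lower by sign, from -0.54 for Mcm3 to -0.15 for Mcm7. Mcm2 ran from 61.6 to 78.5 CPM in the DA and from 69.4 to 98.2 CPM in the aorta (log2 fold change -0.27, adjusted p = 0.0309), with overlap. Pcna ran from 155.6 to 203.2 and from 201.2 to 216 CPM (log2 fold change -0.23, adjusted p = 0.00978). Mki67 ran from 149.5 to 197 and from 128 to 181 CPM (log2 fold change 0.05, 95% interval -0.14 to 0.24), and Ccnb1 from 66.5 to 93.1 and from 55.0 to 76.8 CPM (log2 fold change 0.25). In all 4 members did not overlap between the control vessels, Cdk6, Mcm3 and Ccnd2 being lower and Cdkn1b higher in the DA, where 5.36% of all genes did not overlap. At an adjusted p below 0.05 with no limit on the fold, 6 members were lower and 1 was higher, beside 5.36% and 6.0% of all genes.

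Between Prdm6-deficient DA and Prdm6-deficient aorta no member passed the edgeR test, where 0.267% of all genes did, and none passed with DESeq2 or limma-voom. At an unadjusted p below 0.05 there were 2 members, Mcm3 (log2 fold change -0.25) and Ccnd3 (-0.24). The share of all genes at this unadjusted limit was not counted, here or below, so such counts have no background beside them. Cdk6 was at 54.8 to 76.9 CPM in Prdm6-deficient DA and at 44.5 to 71.4 CPM in Prdm6-deficient aorta, overlapping, with a log2 fold change of 0.13. Ordered by mean level, Cdk6 was at 31.2 CPM in control DA, 59.97 in control aorta, 60.6 in Prdm6-deficient aorta and 66.3 CPM in Prdm6-deficient DA, and the last 3 groups overlapped one another. E2f1 was at 20.8 and 20.7 CPM in the Prdm6-deficient vessels.

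The effect of Prdm6 deficiency on Cdk6 differed between the vessels by 1.07 on the log2 scale (SE 0.20, edgeR adjusted p = 0.000902 for the interaction), and no other member passed this test, beside 2.58% of all genes called and 0.917% called higher. Within the lower and higher run of animal numbers the difference was 1.25 (adjusted p = 0.143) and 0.81 (adjusted p = 0.148), neither passing. For Ccne1, lower in both vessels by sign, the difference was -0.32, and for E2f1 it was 0.38; neither passed, so their effects were not shown to differ between DA and aorta. The smooth muscle marker sum was higher in control DA (13700 to 24000 CPM) than in the other 3 groups (8632 to 12230 CPM) without overlap, as was the melanocyte marker sum (27.8 to 217.9 CPM against at most 13.8). Cdk6 was lowest in control DA by mean, with its highest library there (45.2 CPM) above the lowest of Prdm6-deficient aorta (44.5 CPM); the part of either marker list in the level of Cdk6 was not tested.

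The D-type cyclins did not move together. Ccnd1 spread widely in control DA, at 43.2, 56.3, 11.3, 21.6, 13.3, 20.7 and 62.1 CPM. It was at 39.2, 42.4, 25.5, 35.8 and 53.5 CPM in Prdm6-deficient DA, within that range (log2 fold change 0.26, 95% interval -0.34 to 0.87). It ran from 37.0 to 59.8 CPM in control aorta and from 24.3 to 42.2 CPM in Prdm6-deficient aorta (log2 fold change -0.68, SE 0.32, adjusted p = 0.333). With the aorta libraries fitted alone, where the wide spread of the DA does not enter, the value of Ccnd1 was -0.69 and passed (edgeR adjusted p = 0.00728). That fit called 702 of 15195 genes, against 404 of 16463 in the main fit. The span of Ccnd1 overlaps that of a gene on the opposite strand, listed as LTO1 (30.8 CPM on average). The strand setting is not given, and reads from a stretch shared by both genes were not measured apart.

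Ccnd2 ran from 140.8 to 168 CPM in control DA and was at 125, 141.5, 136, 166 and 146 CPM in Prdm6-deficient DA, overlapping (log2 fold change -0.09). All 7 control DA libraries lay below the 6 of control aorta, by -0.35 on the log2 scale (adjusted p = 0.000348), within the fold limit. Ccnd3, the most abundant D-type cyclin per kilobase, ran from 279.9 to 322 CPM in control DA and was at 251.5, 295.5, 257, 253 and 264.5 CPM in Prdm6-deficient DA (log2 fold change -0.17, adjusted p = 0.135). It ran from 265 to 347 CPM in control aorta and from 285 to 350.3 CPM in Prdm6-deficient aorta (log2 fold change 0.08). Cdk4, the other partner of these cyclins, had log2 fold changes of -0.02 in the DA and -0.12 in the aorta.

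None of the 4 CDK inhibitors passed the test in any of the 5 comparisons, with edgeR, DESeq2 or limma-voom. At an unadjusted edgeR p below 0.05 there were 1 in the DA, 2 in the aorta and 3 between control vessels. There were 0 between Prdm6-deficient vessels and 2 for the interaction, with no share of all genes counted beside them. Cdkn1a ran from 14.5 to 31.9 CPM in control DA, with a median of 20.6, and was at 22.3, 29.5, 29.6, 30.7 and 27.4 CPM in Prdm6-deficient DA, all within the control range (log2 fold change 0.40, SE 0.15, adjusted p = 0.075). The highest control library was replicate 6; without it the value was 0.53 and passed (adjusted p = 0.00571). In the aorta Cdkn1a ran from 22.3 to 29.3 CPM in controls and from 23.4 to 28.8 CPM without Prdm6.

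Cdkn1b was lowest in control aorta. It was at 80.8, 82.1, 62.6, 84.8, 77.0 and 81.8 CPM there and at 96.6, 100.6, 106, 82.2 and 108 CPM in Prdm6-deficient aorta, where 1 library overlapped the controls (log2 fold change 0.34, SE 0.09, adjusted p = 0.0213). In control DA it ran from 88.3 to 117 CPM, above all control aorta libraries (log2 fold change 0.34, adjusted p = 0.00551, within the fold limit), and in Prdm6-deficient DA from 82.4 to 105 CPM.

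Cdkn1c, the most abundant member per kilobase in both control groups, ran from 213 to 569 CPM in control DA, with a median of 407.5, and was at 269, 381, 371, 266 and 435 CPM in Prdm6-deficient DA (log2 fold change -0.28, 95% interval -0.65 to 0.09). In control aorta it ran from 450.3 to 701 CPM and in Prdm6-deficient aorta from 353 to 546 CPM (log2 fold change -0.39, adjusted p = 0.371). Cdkn2c ran from 66.3 to 92.3 CPM in control DA and from 58.2 to 92.3 CPM in Prdm6-deficient DA, and from 74.4 to 90.04 CPM in control aorta against 65.9 to 84.8 CPM in Prdm6-deficient aorta (log2 fold change -0.23, adjusted p = 0.287). All of these ranges overlapped.

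**Figure D4:**
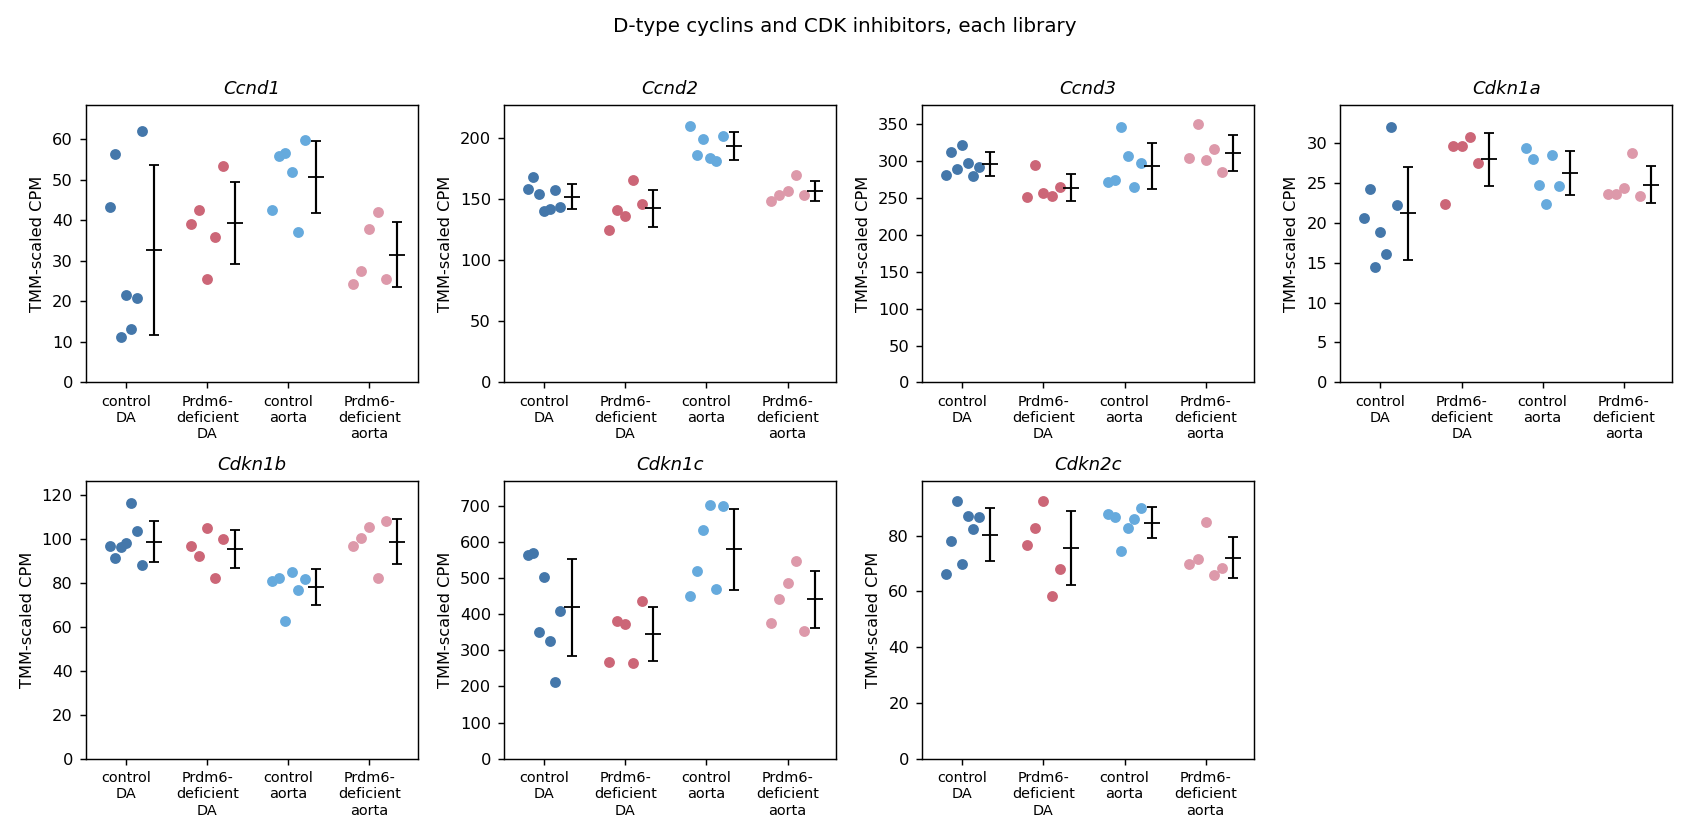
TMM-scaled CPM (y axis, from 0) of the D-type cyclins Ccnd1, Ccnd2 and Ccnd3 and of the CDK inhibitors Cdkn1a, Cdkn1b, Cdkn1c and Cdkn2c in each of the 23 libraries, by group on the x axis; points are libraries and bars are the mean ± SD of 7, 5, 6 and 5 libraries. Ccnd1 spread from 11.3 to 62.1 CPM within control DA, and Ccnd2 was at 181.5 CPM or more in control aorta and at 170.2 CPM or less in the other 3 groups.

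Other cell cycle genes were listed from general knowledge. Of 35 other mitosis genes all 35 had a negative sign when Prdm6 was lost from the DA (median log2 fold change -0.21), and 3 fell past the limits: Anln (-0.52, adjusted p = 0.000342), Incenp (-0.52, adjusted p = 0.00779) and Prc1 (-0.51, adjusted p = 0.000202), where 2.82% of all genes were called lower. Anillin scaffolds the contractile ring, INCENP is part of the chromosomal passenger complex with Aurora B and survivin, and PRC1 bundles the microtubules of the central spindle. In each of the 3 no Prdm6-deficient DA library overlapped a control, where 5.66% of all genes did not overlap. Of 30 other S phase genes 15 were lower and none was called in the DA, with a median of -0.01 and 7 at an unadjusted p below 0.05.

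In the aorta 28 of 30 other S phase genes and 33 of 35 other mitosis genes were lower by sign, with medians of -0.23 and -0.14, and none was called, with 7 and 8 at an unadjusted p below 0.05. Between control DA and control aorta 26 of 30 other S phase genes and 13 of 35 other mitosis genes were lower in the DA, with medians of -0.26 and 0.03. Of 29 other regulators, which include E2F and retinoblastoma family genes, Foxm1 and Myc, 28 were tested and none was called by edgeR in any of the 5 comparisons, with 2 to 10 at an unadjusted p below 0.05. These counts carry no test of the lists against other genes. Those at an unadjusted p, in the DA as well, have no share of all genes beside them.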

How the data were processed

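Libraries were prepared from total RNA of microdissected vessels with a low-input protocol and sequenced as paired reads. The authors filtered reads with the FASTX-Toolkit, removed adapters with tagdust, aligned with STAR to mm10 and quantified genes with RSEM, with a GENCODE annotation given as version 20; the deposited values are expected counts per gene, not normalised, 1 column for each of 23 libraries. RSEM splits reads that fit several genes, and the strand setting is not given in the sources used here. Genes were named from GENCODE release M21, which matched 54723 of 54752 identifiers. Of the members, Cdt1, Mcm7, Cdc20, Cdk2, Cdk4, Ccna2, Ccnd1, Ccnd3 and Ccne2 overlap another expressed protein-coding gene; Cdk6, Ccne1, E2f1 and Mcm3 do not.

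Expected counts were rounded to whole numbers, filtered with filterByExpr, scaled by TMM and tested with edgeR 4.0.16 (quasi-likelihood, 1 mean per group, all 23 libraries in 1 model; R 4.3.3), with Benjamini-Hochberg adjustment over 16463 genes. Genes were called at an adjusted p under 0.01 with a log2 difference of more than 0.5, the limits of the study. DESeq2 1.42.0 and limma-voom (limma 3.58.1) were alternatives. SE was derived from the F statistic, and 95% intervals are 1.96 SE on each side. List levels are means of log2 CPM with a prior count of 2. The floor of 3 counts covers counting error only. On simulated counts for Prdm6-deficient DA against control DA (16005 genes), 69% of genes changed by a log2 fold of 1 and 85% of those changed by 2 were recovered.

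The members and lists were chosen with earlier results of these data known. Per-library values are given for each member called and for 13 others named by rule (Mki67, Top2a, Pcna, Mcm2, Cdk1, Ccnb1, Ccnd1, Ccnd2, Ccnd3 and the 4 CDK inhibitors), and Bub1b was added after its values were seen. Marker lists for 11 cell types were summed per library; of these, thymocyte markers stayed at or below 28.6 CPM. Replicate numbers did not pair libraries: over 19 pairs sharing a number the correlation of deviations from the group mean had a median of 0.009 (range -0.054 to 0.133), and over 10 pairs from the same animal a median of 0.019.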

Additional observations from a re-analysis of the deposited data

Results flagged for a closer look

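In 84 groups of values (17 members described per library, each in 4 groups, and 4 lists in 4 groups), 3 libraries lay far from the rest of their group by Dixon's criterion, where chance alone gives about 4.2. Cdkn1a was at 28.8 CPM in replicate 4 of Prdm6-deficient aorta, with the other 4 libraries between 23.4 and 24.4 CPM. Cdkn1b was at 62.6 CPM in replicate 3 of control aorta, from the control animal that carries Wnt1Cre, with the other 5 between 77.0 and 84.8 CPM. Pcna was at 196 CPM in replicate 5 of Prdm6-deficient DA, with the other 4 between 178 and 180.5 CPM. The effect of Prdm6 deficiency on Cdk6 differed between DA and aorta by 1.07 on the log2 scale, by the interaction test.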

How the results depend on the processing

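No member called changed direction under any alternative run. With 1 library left out at a time, the members called numbered 2 to 4 in Prdm6-deficient DA against control DA, 1 in the aorta, 1 to 2 between control vessels, 0 between Prdm6-deficient vessels and 1 for the interaction; Bub1b was added in 4 of these fits, without Prdm6-deficient DA replicate 5 (-0.54) and without control DA replicates 1 (-0.52), 6 (-0.51) or 7 (-0.51), Cdkn1a was added without control DA replicate 6, and Mcm3 was lost without control aorta replicate 4, as it was without both libraries richest in red blood cell RNA (1 member, Cdk6; an alternative chosen after seeing the data). The median of cyclins and CDKs between control vessels ran from -0.12 to 0.010, the highest without control aorta replicate 1. The replicate block, and for the comparisons between vessels the animal as a block, called the members named in the report: with the replicate block 2, 1, 2, 0 and 1 in the order above. Fitting the aorta libraries alone called 3 (E2f1, Ccnd1, Ccne1) and DESeq2 called 2 (E2f1, Ccne1). At an adjusted p below 0.05 with no limit on the fold, 7, 5 and 7 members passed in the DA, the aorta and between controls.

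Restricting to the lower run of animal numbers leaves few libraries, with only 1 of control aorta, so its calls are not counted here. In that run the log2 fold change of Cdk6 was 1.32 in the DA, -0.97 between control vessels and 1.25 for the interaction. That of E2f1 in the aorta was -0.46. The higher run called 0 members in the DA, where 419 of 17701 genes were called. For the interaction it called 0 members, where 166 of 17701 genes were called. In the lower run the S phase median was -0.18 in the DA, -0.079 between control vessels and -0.063 for the interaction (0.23 in the higher run), the mitosis median 0.26 between control and 0.073 between Prdm6-deficient vessels, the cyclin and CDK median -0.17 and -0.16, and the inhibitor median 0.067 in the aorta (-0.24 in the higher run), -0.077 between control vessels and -0.25 for the interaction (0.40 in the higher run). The cause of these shifts was not tested. An interaction limited to the groups compared was not run, since it needs all 4.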

Other observations

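Cdkn1c and Ccnd1, chosen after their wide spread was seen, were set against the summed level of the 6 fibroblast markers (Pdgfra, Dcn, Lum, Dpt, Col1a1, Pi16) within each control group, 4 relations in all. In the 7 control DA libraries Cdkn1c followed the fibroblast sum in the same order (Spearman rho 1, Pearson r 0.964, exact permutation p = 0.000397 for each, adjusted over the 4 relations 0.00159), and r was 0.924 without the 2 libraries farthest from the median. In the 6 control aorta libraries r was 0.647 and rho 0.657 (exact permutation p = 0.15 and 0.175), and r was 0.212 without the 2 farthest. For Ccnd1 r was 0.702 and rho 0.643 in control DA (exact permutation p = 0.103 and 0.139) and 0.885 and 0.943 in control aorta (exact permutation p = 0.00833 and 0.0167, adjusted 0.0167 and 0.0333), with 0.85 without the 2 farthest. The points share the scaling of each library, and the relations were found and computed in the same libraries. The adjustment covers the 4 relations, not the choice of the genes or of the marker list. Other marker sums were not set against these genes. In control DA the leukocyte and macrophage sum, like Cdkn1c, was lowest in replicate 6 (57.7 CPM) and highest in replicate 2 (214.1 CPM). The smooth muscle sum was lowest in replicate 2 (13700 CPM). The relation of Cdkn1c was not shown to be particular to fibroblast markers. Col1a1 gave the larger part of the fibroblast sum, on average 2587 CPM (control DA) and 3022 CPM (control aorta). Each relation is thus weighted towards Col1a1, and the remaining markers were not tested without it.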
